A study of Mus musculus with 4 samples.

Results

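The 9 genes described here write, maintain, remove or read DNA methylation, or, in the case of Ezh2, place the repressive methyl mark on histone H3. They are the maintenance pair Dnmt1 and Uhrf1, the de novo methyltransferases Dnmt3a and Dnmt3b, the dioxygenases Tet1, Tet2 and Tet3, the methyl-CpG reader Mbd2, and Ezh2. They were taken by symbol from a table of 28334 rows. Each symbol stood on 1 row, and all 9 were among the 13685 genes tested, which had a linear value (2 to the power of the deposited log2 value) of at least 10 in at least 2 libraries. The samples were regulatory T (Treg) cells, CD4+ and YFP+, sorted from C57BL/6 mice without treatment, out of spleen together with peripheral lymph nodes, and their poly-A RNA was sequenced. Both groups carry Foxp3 YFP-Cre/0, a single copy of an allele in which the Treg factor Foxp3 drives YFP and the recombinase Cre, and all titles are tagged hemizygous. The WT group (2 libraries) has Pdpk1 +/+ and the KO group (2 libraries) has Pdpk1 FL/FL, the floxed gene of the kinase PDK1. The ages of the mice, any pooling and the reads per library are not given in the sources used here, and nothing states that the libraries of a group came from separate mice, so p-values measure only the spread between these libraries, which may be technical.

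DNA methylation of CpG sites is copied at each round of DNA replication. UHRF1 binds the half-methylated CpG left behind the replication fork and brings DNMT1, which methylates the new strand, while DNMT3A and DNMT3B can methylate sites that carried no mark. TET enzymes oxidise 5-methylcytosine, after which the base can be replaced by repair or diluted by replication. In Treg cells, an intronic enhancer of Foxp3 is kept free of methylation, and this demethylated state is known to keep Foxp3 expression stable through division. TET enzymes take part in that demethylation, MBD2 binds methylated CpG and recruits the NuRD deacetylase complex, and EZH2 is the catalytic subunit of Polycomb repressive complex 2 (PRC2).

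The targeted gene was checked first. Pdpk1 was at 11.71 and 11.76 in WT 1 and WT 2 and at 11.78 and 11.73 in KO 1 and KO 2 (log2 normalised counts), so its groups overlapped (log2 fold change 0.02, SE 0.03, adjusted p = 0.612). Which exons are floxed is not given in the sources used here, so a value over the whole gene (chromosome 17, 24073680 to 24150924, minus strand, mm10) gives no check of the labels, and KO below means the libraries labelled KO. The Treg markers fitted the sort. Foxp3 was at 11.42 and 11.38 in WT and at 11.42 and 11.47 in KO, although its exons share 1339 bases with other annotated genes, and Il2ra, Ctla4, Ikzf2, Cd4, Cd3e and Tnfrsf18 were all at 10.41 or above in every library. Of the markers of other cells, 5 B cell genes summed to linear values of 344 to 381 in WT and 302 to 310 in KO, and 5 tested myeloid genes to 210 to 306 and 221 to 241. The other lists summed to 268 to 285 in WT and 271 to 285 in KO for 2 CD8 T cell genes, 55.0 to 66.8 and 47.7 to 57.0 for 2 tested natural killer cell genes, and 59.7 to 62.7 and 60.6 to 67.2 for 3 red cell genes. Among these markers Cd79a (log2 fold change -0.62) and Klrb1c (-1.05) were called lower in KO and none was called higher. Linear values are powers of 2 and cannot be 0, so values above 0 do not by themselves show that other cells were present. The part of other cells in the results was not tested.

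Both maintenance genes were higher in KO, and 2 of the 3 TET genes were lower. Uhrf1, Dnmt1, Ezh2 and Mbd2 rose, Tet1 and Tet3 fell, and Dnmt3a, Dnmt3b and Tet2 did not pass the test. A gene is called where limma gave a p under 0.05 after Benjamini-Hochberg adjustment across the 13685 genes. By that rule 6 of the 9 genes were called, against 47.4% of all tested genes, and the 4 higher and 2 lower calls stand beside 27.1% of all tested genes called higher and 20.3% called lower. At this background a call by itself sets a gene little apart. All calls together split into 3703 higher and 2778 lower, but quantile normalization gave 3029 and 3067, and centring on medians 2983 and 3250, while the 6 calls among the 9 genes kept their directions. The log2 fold changes ran from -0.63 (Tet1) to 0.595 (Uhrf1), none of the 9 genes changed 2-fold, and the median absolute log2 fold change was 0.195 in these genes and 0.14 in all tested genes. The changes of Tet1 and Uhrf1 were larger in size than those of 93.2% and 92.3% of tested genes. In these bulk samples, a larger share of cells that transcribe a gene and more RNA of it per cell cannot be told apart.

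**Figure D1:**
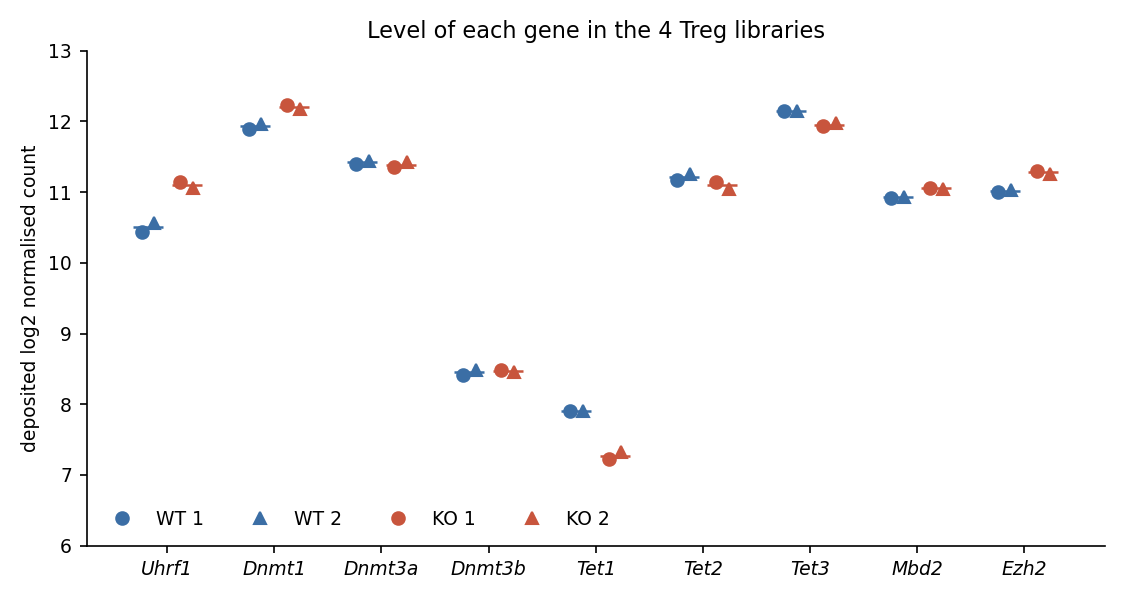
Deposited log2 normalised count of each of the 9 genes in each library (WT in blue, KO in red, circles for replicate 1, triangles for replicate 2, horizontal lines for group means of n = 2). KO lies above WT for Uhrf1, Dnmt1, Mbd2 and Ezh2 and below it for Tet1, Tet2 and Tet3, and heights should be compared within a gene only, since genes differ in length.

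The calls depended on how the 4 libraries entered the fit. Leaving out a library or adding a block leaves fewer residual degrees of freedom than the main fit, which by itself tends to raise p-values. Blocks of WT 1 with KO 2 and WT 2 with KO 1 were added after seeing the data. With them limma called 9728 of the tested genes and, among the 9, the same 6 genes and Tet2. With any 1 library left out, limma called 0 of the 13685 genes (smallest adjusted p 0.0817 to 0.0961, 5225 to 5669 genes at an unadjusted p under 0.05), although the log2 fold changes of the 6 called genes kept their sign. With the replicate number as a block it also called 0 genes, with 35.7% of tested genes and 6 of the 9 genes, the same ones as above, at an unadjusted p under 0.05. Across the tested genes, the difference between replicates 1 and 2 in WT was opposed to that in KO, and whether the values were adjusted for replicate before deposit is not given in the sources used here. If they were, the p-values without a block are too small. At an adjusted p under 0.1, the blocked fit called 16.1% of tested genes and 5 of the 9 (Uhrf1, Tet1, Tet3, Mbd2 and Ezh2).

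**Figure D2:**
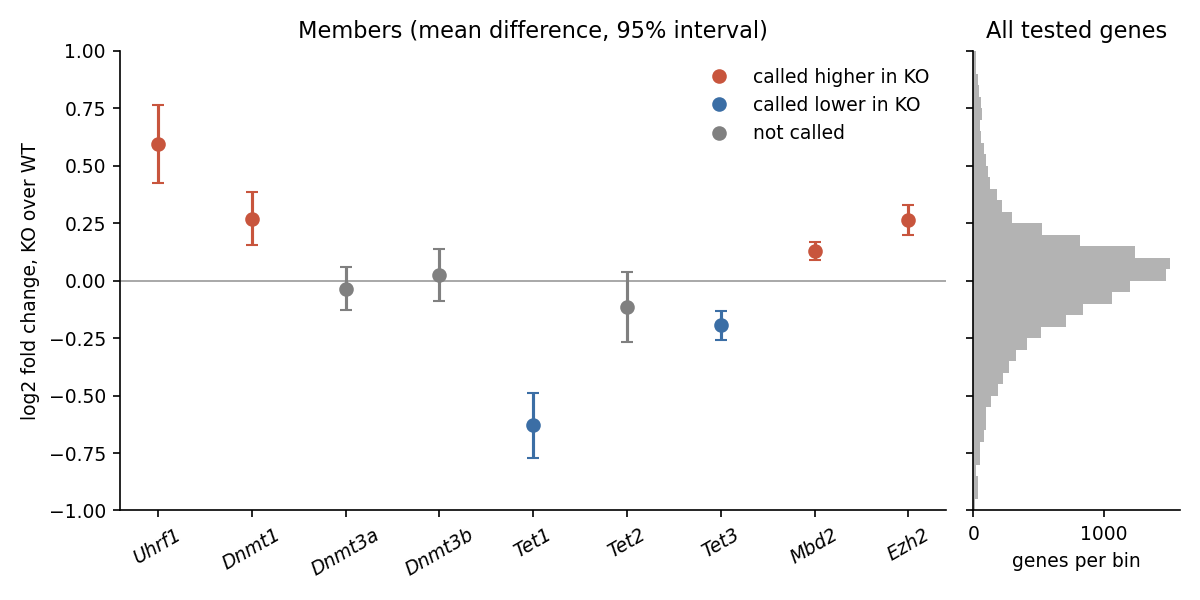
Log2 fold change of KO over WT for the 9 genes, with 95% intervals from limma, beside a histogram of the same quantity over all tested genes (bins of 0.05; 276 genes beyond 1 in either direction are not drawn). Uhrf1 at 0.595 and Tet1 at -0.63 lie in the thin ends of the histogram, while Dnmt3a, Dnmt3b and Tet2 have intervals that include 0.

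Among the maintenance genes, Uhrf1 had the largest increase of the 9. It was at 10.44 in WT 1, 10.57 in WT 2, 11.14 in KO 1 and 11.06 in KO 2. The groups were separated by 0.49, against 0.13 and 0.08 between libraries of a group. Uhrf1 was 1.51-fold higher in KO (log2 fold change 0.595, 95% interval 0.42 to 0.77, SE 0.06, adjusted p = 0.00814). Dnmt1, the methyltransferase that UHRF1 brings to the fork, was at 11.89, 11.97, 12.23 and 12.17 in the same order. Both KO libraries were above both WT libraries, by a smaller step. Dnmt1 was 1.21-fold higher (0.27, 95% interval 0.16 to 0.38, SE 0.04, adjusted p = 0.0146). The log2 distance from Uhrf1 to Dnmt1 was -1.45 and -1.40 in WT and -1.09 and -1.11 in KO, so Uhrf1 gained on Dnmt1 in both KO libraries. Uhrf1 lies on the plus strand of chromosome 17 (mm10, 56303321 to 56323486) and Dnmt1 on the minus strand of chromosome 9 (20907209 to 20959888). Their exons overlap no exon of another gene in GENCODE M21.

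Ezh2, on the minus strand of chromosome 6 (47530139 to 47595341), changed by about as much as Dnmt1. It was at 11 and 11.03 in WT and at 11.30 and 11.26 in KO. The groups were separated by 0.23, against 0.03 and 0.04 between libraries of a group. Ezh2 was 1.2-fold higher in KO (log2 fold change 0.265, 95% interval 0.20 to 0.33, SE 0.02, adjusted p = 0.00679). An antisense non-coding gene shares 92 bases of exon with it, and the use of strand in counting is not given in the sources used here, so a small part of these reads could belong to that gene.

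The promoters of these 3 genes that rose are shown because all of them hold a match to the motif of E2F factors, which drive genes of DNA replication. The motif was searched as TTTCCCGC, TTTCGCGC, TTTGCCGC or TTTGGCGC on both strands, overlapping matches counted, from 250 bases before to 50 bases after each RefSeq start site (GRCm38.p6). Capitals mark the match, and each stretch reads 5′ to 3′ along the strand of the gene. The Uhrf1 stretch (chr17:56304092-56304151) has its match 185 bases before the second of 2 listed starts. The Dnmt1 stretch (chr9:20952824-20952853) has the match on the opposite strand, 219 bases before the last of 3 listed starts, in an exon of a transcript that starts further upstream. A second Dnmt1 match begins at base 34 after that start. The Ezh2 stretch (chr6:47595004-47595063) has its match at bases 4 to 11 after the start.
Uhrf1: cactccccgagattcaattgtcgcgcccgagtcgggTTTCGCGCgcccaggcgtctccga
Dnmt1: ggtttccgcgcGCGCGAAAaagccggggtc
Ezh2: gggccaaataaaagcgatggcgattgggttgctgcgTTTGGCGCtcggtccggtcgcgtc

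Of the 9 genes, 8 had a promoter in the RefSeq table. Mbd2, which also rose, had none and was not searched. The other listed starts of Uhrf1 and Dnmt1 had no match. Dnmt3a, Dnmt3b, Tet1, Tet2 and Tet3 held none of these letters in their windows. A match was found in 2.26% of all 32851 promoters, in 4.81% of tested genes with a promoter, and in 10 of 25 cell cycle genes with a promoter (40.0%). A match describes the letters only.

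The de novo methyltransferases did not pass the test. Dnmt3a was at 11.40 and 11.44 in WT and at 11.35 and 11.42 in KO, with overlapping groups (log2 fold change -0.035, 95% interval -0.13 to 0.06, adjusted p = 0.432). Dnmt3b was at 8.41 and 8.49 in WT and at 8.49 and 8.46 in KO, also overlapping (0.025, 95% interval -0.09 to 0.14, adjusted p = 0.639). An increase of the size seen for Dnmt1 (0.27) lies outside both intervals. A pseudogene of Dnmt3a, Dnmt3a-ps1, is annotated and may share reads with it. Dnmt3l, the regulatory partner of the de novo enzymes in germ cells, was near the bottom of the table, between -1.20 and -1.14, and was not tested. Dnmt3a lies on chromosome 12 (3806007 to 3914443) and Dnmt3b on chromosome 2 (153649450 to 153687730), both on the plus strand.

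The TET enzymes differed from each other in level and in size of change. Tet1, on chromosome 10 (62804570 to 62908996, minus strand), was at 7.90 in each WT library and at 7.22 and 7.32 in KO. The gap of 0.58 between the groups was the widest among the 9 genes. Tet1 was 1.55-fold lower in KO (log2 fold change -0.63, 95% interval -0.77 to -0.49, SE 0.05, adjusted p = 0.00643). Tet3, on chromosome 6 (83362373 to 83459084, minus strand), was at 12.15 in each WT library and at 11.93 and 11.98 in KO. Tet3 was thus lower in both KO libraries, by a smaller step than Tet1. The fall was 1.14-fold (-0.195, 95% interval -0.26 to -0.13, SE 0.02, adjusted p = 0.00979). Tet2, on chromosome 3 (133463679 to 133545139, minus strand), was at 11.17 and 11.25 in WT and at 11.15 and 11.04 in KO. The groups did not overlap, with 0.02 between them, but the spread within groups was larger than that gap. Its log2 fold change of -0.115 did not pass the test (95% interval -0.27 to 0.04, adjusted p = 0.157). Non-overlapping groups were common in this table, at 73.0% of tested genes, and 7 of the 9 genes had them.

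To compare levels between genes, linear values were divided by the summed length of the exons of each gene. Per kilobase, Mbd2 and Ezh2 were highest of the 9, at 791 and 797 for Mbd2 and at 731 and 746 for Ezh2 in WT, and at 872 and 866 and at 900 and 875 in KO. The order of this pair thus differed between the groups. Dnmt1 followed them in every library (602 and 637 in WT, 762 and 731 in KO). Uhrf1 and Tet3 stood next and exchanged places between WT 1 and WT 2, with Uhrf1 at 379 and 415 and Tet3 at 387 in each. In KO, Uhrf1 (615 and 582) was clearly above Tet3 (332 and 344). Dnmt3a (263 to 280) and Tet2 (229 to 265) followed, then Dnmt3b (78.6 to 83.1), and Tet1 was last at 16.6 in WT and 10.4 and 11.1 in KO. With the longest transcript as the length, the order of the WT means differed only in that Uhrf1 and Tet3 changed places.

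These levels give the makeup of each enzyme family. Dnmt1 held 63.2% and 63.7% of the summed value per kilobase of the 3 methyltransferases in WT and 68.8% and 67.1% in KO. The share of Dnmt3a was correspondingly lower in KO, at 23.7% and 25.4% against 28.6% and 28% in WT. Dnmt3b held 8.25% and 8.31% in WT and 7.5% and 7.47% in KO. Among the TET enzymes Tet3 held the largest share in each library, 59.2% and 57.9% in WT and 56.4% and 58.9% in KO, with overlapping groups. Tet2 held 38.3% and 39.6% in WT and 41.9% and 39.2% in KO. Tet1, which had the largest fold change of the 9, held 2.54% and 2.49% in WT and 1.76% and 1.90% in KO. Most TET transcript was therefore from Tet3 and Tet2 in both groups. With 2 libraries against 2, an exact permutation test could not reach 0.05, so these shares are a description.

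**Figure D3:**
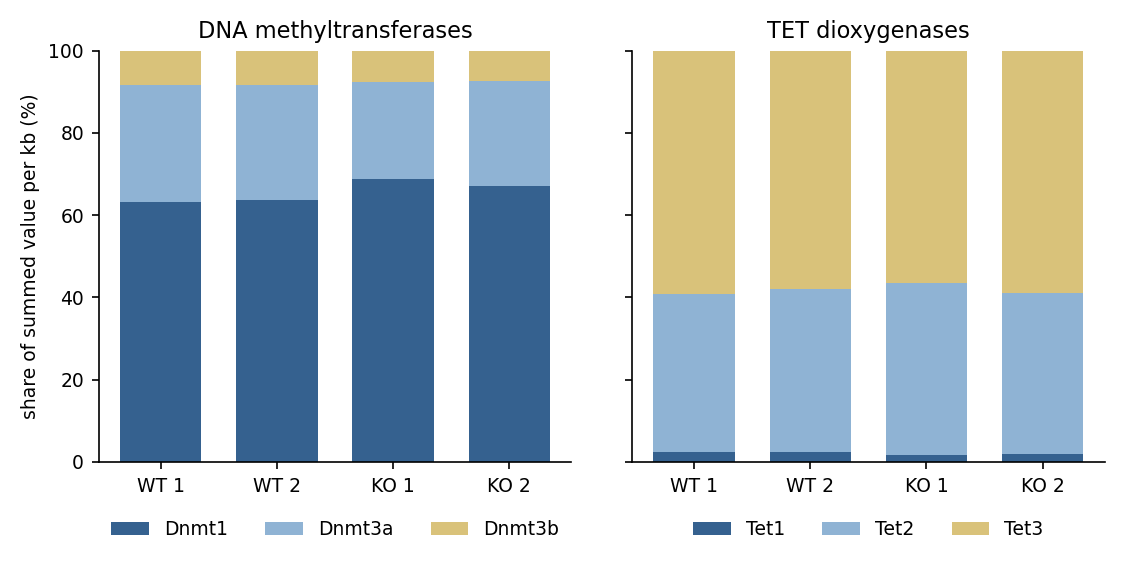
Share of the summed linear value per kilobase of exon (%) held by each DNA methyltransferase gene (left) and each TET gene (right) in each of the 4 libraries. The Dnmt1 share is 63.2% and 63.7% in WT and 68.8% and 67.1% in KO, while Tet3 and Tet2 make up nearly all of the TET total in each library.

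The reader Mbd2 lies on the plus strand of chromosome 18 (70568189 to 70626131). It was at 10.92 and 10.93 in WT and at 11.06 and 11.05 in KO. The change was small but the libraries of a group differed by only 0.01, the smallest step of the deposited 2 decimals. Mbd2 was 1.09-fold higher (log2 fold change 0.13, 95% interval 0.09 to 0.17, SE 0.01, adjusted p = 0.00838). This size is near the middle of the table, as 47.1% of tested genes had a smaller absolute change.

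Other methyl-CpG readers showed no common direction. Of 9 listed, 2 were called higher and 2 lower, and the median log2 fold change was -0.03, against 0.015 over all tested genes. Over all tested genes 27.1% were called higher and 20.3% lower, which is the background for this and each list count below. Mbd3, the NuRD subunit related to MBD2, rose 1.06-fold, but it did not pass after quantile normalization (adjusted p = 0.179) or median centring (adjusted p = 0.0903) or with a variance prior without trend (adjusted p = 0.0649), and the glycosylase gene Mbd4, whose product removes thymine from mismatches, rose 1.11-fold. Mbd6 fell 1.11-fold and Mbd5 1.07-fold, both members of the family by sequence. Of the 12 NuRD genes, 6 were called higher and 0 lower (median 0.06), where 47.4% of all tested genes were called in either direction. The histone chaperones Rbbp7 (1.18-fold) and Rbbp4 (1.09-fold), which NuRD shares with PRC2, and the MTA scaffolds Mta1 (1.08-fold) and Mta2 (1.07-fold) had the smallest p. After quantile normalization Rbbp4 (adjusted p = 0.0827) and Mta2 (adjusted p = 0.0650) did not pass. The deacetylase Hdac1 was at 11.06 in each WT library and at 11.09 and 11.06 in KO.

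Among partners of the methyltransferases, limma called 5 of 8 tested genes higher and 1 lower, and their median was 0.11 on the log2 scale. The shares over all tested genes were 27.1% higher and 20.3% lower. Hells, the chromatin remodeller needed for methylation of repeats, was at 9.85 and 10.01 in WT and at 10.50 and 10.37 in KO and was 1.42-fold higher (log2 fold change 0.505, SE 0.08, adjusted p = 0.0163). Its order over the libraries, with KO 1 highest and WT 1 lowest, was that of Uhrf1, and also that of Dnmt1 and Ezh2. Replicate differences in WT and KO were opposed across the tested genes (r = -0.907), so this order is not particular to these genes. Cdca7l, of the family that works with Hells, rose 1.16-fold, and Trim28, the corepressor that silences retroelements, rose 1.11-fold. Uhrf2, the paralog of Uhrf1, was at 11.49 in each WT library and at 11.56 and 11.55 in KO. It was called (log2 fold change 0.065), but not after quantile normalization (0.016, adjusted p = 0.504) or median centring (0.035, adjusted p = 0.0971) or with a variance prior without trend (adjusted p = 0.0746). Its log2 fold change stands beside 0.595 for Uhrf1, and the difference between them was not tested.

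Genes around the TET enzymes moved in both directions. Of 3 tested TET partners, 1 was called lower and 0 higher (median -0.06). Cxxc5, a CXXC-domain protein of the kind that binds TET2, was at 6.10 and 6.14 in WT and at 5.08 and 5.16 in KO. These groups were far apart relative to their spread, and Cxxc5 was 2-fold lower (log2 fold change -1, SE 0.06, adjusted p = 0.00573). Ogt, the O-GlcNAc transferase that binds TET2 and TET3, was at 12.44 and 12.46 in WT and at 12.43 and 12.35 in KO and did not pass. In the list of base excision repair, cytidine deaminase and Gadd45 genes, 8 of 17 were called higher and 2 lower, with a median of 0.195. Of all tested genes, 27.1% were called higher and 20.3% lower.

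Within that list, Gadd45g, a stress-induced protein linked to demethylation, rose 1.38-fold, the cytidine deaminase gene Apobec3 1.16-fold and Parp1, a sensor of DNA breaks, 1.15-fold. Tdg, the glycosylase that removes oxidised methylcytosine, was at 9.16 and 9.23 in WT and at 9.44 and 9.36 in KO and was called higher (log2 fold change 0.205, adjusted p = 0.0307; named after its values were seen).

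Enzymes that supply the methyl donor S-adenosylmethionine and the TET cosubstrate 2-oxoglutarate were mostly higher in KO. Of 16 genes of the methionine and folate cycles, 11 were called higher and 1 lower (median 0.165 on the log2 scale). Here too the background was 27.1% of all tested genes called higher and 20.3% called lower. Ahcy, which removes S-adenosylhomocysteine, the product that inhibits methyltransferases, was at 9.60 and 9.64 in WT and at 10.14 and 10.10 in KO and was 1.41-fold higher (0.50, SE 0.03, adjusted p = 0.00545). Its relative Ahcyl2 rose 1.33-fold and the serine hydroxymethyltransferase Shmt2 1.18-fold. Of 17 genes that make or use 2-oxoglutarate, or remove the related succinate and fumarate, 10 were called higher and 1 lower (median 0.15). The mitochondrial isocitrate dehydrogenase Idh2 rose 1.32-fold, the transaminase Got1 1.27-fold, the succinate dehydrogenase subunit Sdhd 1.19-fold and fumarase Fh1 1.15-fold. The 1 lower gene was the cytosolic Idh1 (log2 fold change -0.28; named after its values were seen), at 7.82 and 7.81 in WT and at 7.52 and 7.55 in KO. Idh2 and Idh1 thus changed in opposite directions.

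Beside Ezh2, the list of other PRC2 subunits and of histone demethylases for its mark was split. Of 12 genes, 5 were called higher and 2 lower, with a median of 0.07, beside 27.1% and 20.3% of all tested genes. The 5 were Suz12 (log2 fold change 0.17, adjusted p = 0.0101), Eed (0.085, adjusted p = 0.0166), Rbbp4, Rbbp7 and Jarid2. Suz12 and Eed were named after their values were seen. The 2 lower genes were the Polycomb-like Phf1 and Mtf2. Jarid2, which guides PRC2 to chromatin, was at 11.49 and 11.53 in WT and at 11.84 and 11.83 in KO and was 1.25-fold higher (log2 fold change 0.325, SE 0.02, adjusted p = 0.00580). Phf1, a Polycomb-like accessory subunit, was at 10.59 and 10.61 in WT and at 10.22 and 10.16 in KO and was 1.33-fold lower (-0.41, SE 0.03, adjusted p = 0.00591). Mtf2, also a Polycomb-like subunit, fell 1.09-fold. The other Polycomb-like gene, Phf19, was at 7.87 and 8.19 in WT and at 8.66 and 8.39 in KO and did not pass (0.495, adjusted p = 0.0775). Ezh1, the alternative catalytic subunit, was at 10.82 and 10.74 in WT and at 10.59 and 10.67 in KO and did not pass (-0.15, adjusted p = 0.0640). The log2 distance from Ezh2 to Ezh1 was 0.18 and 0.29 in WT and 0.71 and 0.59 in KO.

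**Figure D4:**
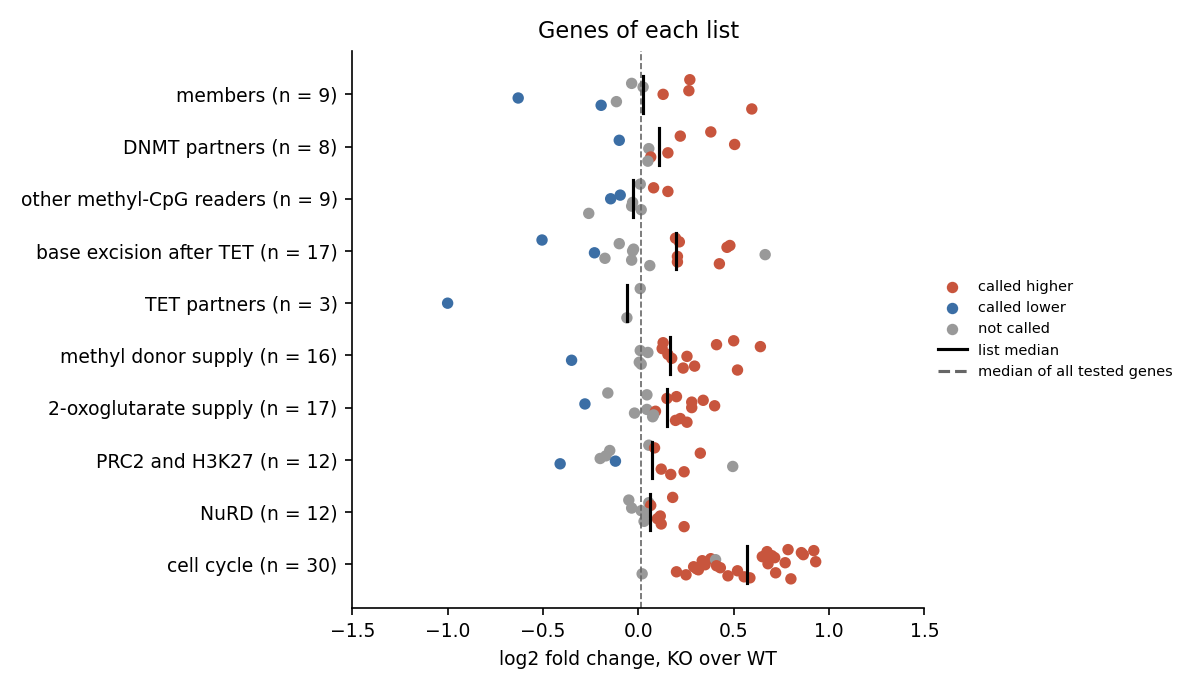
Log2 fold change of KO over WT for each tested gene of the 9-gene set (top row, "members") and of the related lists, coloured by call, with the median of each list (black bar) and of all tested genes (dashed line, 0.015; values beyond the axis are not drawn). The 9 genes spread on both sides of 0, while 28 of 30 cell cycle genes were called higher, against 27.1% of all tested genes.

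Genes of replication and mitosis moved together with Uhrf1, Dnmt1, Ezh2 and Hells. Of 30 cell cycle genes, 28 were called higher and 0 lower (median 0.57 on the log2 scale), against 27.1% and 20.3% of all tested genes. Ube2c (1.74-fold), Gins2 (1.60-fold), Ccna2 (1.60-fold) and Cdt1 (1.30-fold) had the smallest p. By log2 fold change, Uhrf1 lay in the middle of this list, with 16 genes below it and 14 above. Its log2 distance to the list median was 0.505 and 0.59 in WT and 0.635 and 0.595 in KO, with KO 2 only 0.005 above WT 2. Dnmt1 and Ezh2 each exceeded only 3 of the 30 genes in log2 fold change. The levels of both lay closer to the list median in KO (1.73 and 1.71 for Dnmt1, 0.795 in each for Ezh2) than in WT (1.96 and 1.99, and 1.07 and 1.05). The part of the cell cycle genes in these results was not tested. In log2 fold change, Tet1, Tet3, Tet2 and Dnmt3a lay below all 30 genes.

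**Figure D5:**
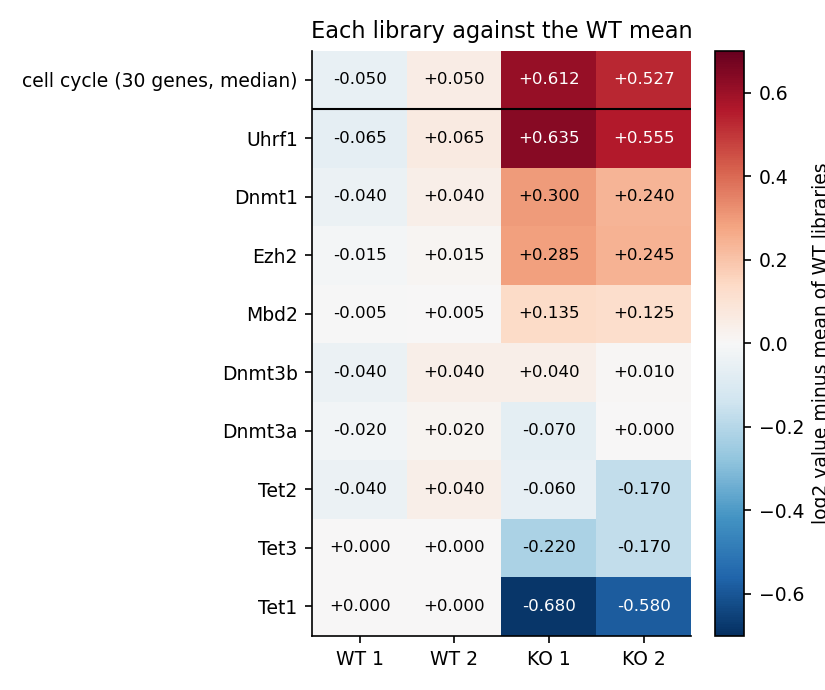
Log2 value of each of the 9 genes in each library minus the mean of the 2 WT libraries, with the median over 30 cell cycle genes in the top row. Uhrf1 (0.635 and 0.555 in KO 1 and KO 2) follows the cell cycle median (0.613 and 0.528), Dnmt1 and Ezh2 lie between 0.24 and 0.30, and Tet1 is at -0.68 and -0.58.

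Across the 4 libraries, the genes with the most similar pattern were found by the Euclidean distance between log2 values centred on the mean of each gene. Predicted genes, unnamed clones and pseudogenes were passed over. The nearest to Uhrf1 were Bag2, Ryk and Ccne2 (distances 0.030 to 0.033), and 98 tested genes lay within 0.1. Nearest to Tet1 were Acot6, Cd40lg and Ift172 (0.033 to 0.037), with 79 genes within 0.1. Far more genes lay within 0.1 of the other called genes. The distance was not scaled to the size of the change, and each of these genes had a smaller change than Tet1 and Uhrf1. For Dnmt1 the nearest were Phgdh, Sae1 and Cbx5 among 768 genes within 0.1, for Ezh2 S100a11, Psmg3 and Sdhd among 1007, and for Tet3 Ift43, Klhl3 and N4bp2 among 1303. Mbd2 had 3390 genes within 0.1, Adal, Atp6v1e1 and Cdadc1 at a distance of 0 among them.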

How the data were processed

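Poly-A RNA of 4 sorted Treg samples was analysed, 2 WT and 2 KO. The deposited values are log2 normalised counts made by the authors, from -2.1 to 13.94 with 2 decimals. The submitters' processing notes name the aligner STAR, the package DESeq2 and mm10 as the build. Versions, annotation, counting tool, strand, the exact transform and any adjustment for replicate are not given in the sources used here, so the depth is unknown and no count model was run. Fold changes of low genes may be understated.

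The 2 groups were compared by limma 3.58.1 (R 4.3.3) across 13685 genes, with genotype as the only term, a variance prior that follows the mean, 2 residual degrees of freedom and two-sided tests. SDs are over 2 libraries, and SEs and 95% intervals are from the fit. The fit was tested on simulated data with independent errors, which cannot show how it treats the opposed replicate differences of these libraries. Of the rows, 57 held a number for a symbol or a repeated symbol and were not named. Positions, counted from 1, and exon lengths are those of GENCODE M21 for mm10 and promoters from RefSeq, by symbol, in Python 3.11.15.

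The genes and lists were chosen with earlier results of these data known. Named are all 9 genes, from each list at most 4 called genes by smallest p, or at most 2 genes if none passed, Pdpk1 and Foxp3, and the 3 nearest patterns of each called gene; others with values are named as examples, chosen after these were seen. Some genes of the lists are counted but not reported here by name. Alternatives were the replicate number as a block (also at a threshold of 0.1), quantile normalization, centring on medians, a linear minimum of 100 or none, adding a pseudocount of 10, a robust prior or one without trend, and leaving out each library.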

Additional observations from a re-analysis of the deposited data

How the results depend on the processing

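The 4 higher and 2 lower calls among the 9 genes were the same in number under quantile normalization, median centring, either other variance prior, no filter or a filter at 100, and a pseudocount of 10. With the replicate block, 0 were called higher and 0 lower, and 0 of all tested genes (4881 at an unadjusted p under 0.05). At a threshold of 0.1 it called 3 higher and 2 lower and 2203 of all tested genes, against 6481 without it. Leaving out any 1 library gave 0 to 0 of the 9 genes called in either direction and 0 to 0 of all tested genes. Same-numbered libraries did not deviate together: across the tested genes, WT 1 minus WT 2 and KO 1 minus KO 2 were correlated at r = -0.907, so the numbers were not taken as pairs. With the crossed pairing, added after seeing the data, limma called 9728 genes, with 4 higher and 3 lower among the 9. Removing a replicate effect before deposit would also leave opposed deviations, and whether this was done is not given in the sources used here and was not tested. The p-values without a block would be too small in that case, and too large if the crossed libraries were true pairs. Signs turned only for values that were not called. Dnmt3b was at -0.005 with median centring and ran from -0.015 to 0.065 with a library left out. Pdpk1 was at -0.0275 with quantile normalization, -0.01 with median centring and -0.005 to 0.045 with a library left out. Cd8a ran from -0.105 to 0.195 and Cd8b1 from -0.035 to 0.045 with a library left out, and Cd8b1 was at -0.025 with median centring. Without counts or depths, the limit that depth sets is unknown.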
